A study of Mus musculus with 16 samples.

Results

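The 10 genes described here are Pttg1, Ccar2, Snapc1, Kifc2, Slc47a1, Tspan8, Lsmem1, 2610507I01Rik, 9330160F10Rik and Gm29676, a set of mouse genes whose RNA was lower in Upf3b-KO than in Ctrl brain in both regions sampled. They were chosen by their lower CPM in Upf3b-KO in both regions, with no numeric threshold, so every Upf3b-KO against Ctrl value of these genes is given as a description. Where such a value is said to pass the thresholds, this places the gene among all genes and is not evidence of a difference, since the choice used the same values. All 10 were present in the deposited matrices, through 39 of 142435 transcripts, and the matrices as a whole matched 55266 genes. In frontal cortex (FC) and cerebellum (Cere), all 10 had enough counts to be tested. Of the 16754 genes tested in both regions, 61 were lower by more than 2-fold at an adjusted p under 0.01 in both (0.364%), and 9 of the 10 genes were among them. Taken alone, 1.06% of genes tested were lower by this measure in frontal cortex and 2.86% in cerebellum. Kifc2 was the exception, because its difference in cerebellum was smaller than 2-fold.

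The study sequenced total RNA depleted of ribosomal RNA from the frontal cortex and the cerebellum of adult Upf3b-null mice (Upf3b-KO) and their littermate controls (Ctrl). There were 4 libraries for each region and genotype, and the study states 4 mice of each genotype. The allele, strain and exact age of the mice were not given in the sources used here. The 15 deep libraries held between 27660078 and 35238677 counts, whereas Upf3b-KO cerebellar library 1 held 64981 and was left out, so n is 3 in Upf3b-KO cerebellum and 4 in the other groups. Levels are in CPM, the count of a gene scaled to the total count of its library. Upf3b itself stood at 14.2 to 15.7 CPM in Ctrl and 0.229 to 0.857 CPM in Upf3b-KO frontal cortex, and at 20.9 to 23.6 against 0.617 to 0.965 CPM in cerebellum. The libraries of a group lay close together, with a median coefficient of variation of 2.32% to 2.69% for genes averaging 1000 counts or more. The variance was 1.54 to 2.08 times that of counting alone, so the p-values below measure the spread between these libraries, which may be largely technical.

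Upf3b encodes an adaptor of nonsense-mediated RNA decay (NMD), a pathway that degrades RNAs on which translation stops early, often upstream of an exon junction. Targets of the pathway are commonly looked for among RNAs that are higher when a decay factor is missing, and the genes here lay on the other side. Their known functions differ. Pttg1 encodes securin, the inhibitor of separase that keeps sister chromatids joined until anaphase. Ccar2 (also called Dbc1) encodes a nuclear inhibitor of the deacetylase Sirt1, and Snapc1 a subunit of the complex that starts transcription of small nuclear RNA genes. Kifc2 is a kinesin motor of neurons, Slc47a1 exports organic cations, Tspan8 is a tetraspanin of the cell surface, and Lsmem1 is a small membrane protein. 2610507I01Rik, 9330160F10Rik and Gm29676 are annotated as long non-coding RNAs (lncRNAs).

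The lncRNA 2610507I01Rik (chromosome 11 of GRCm39, 59087691 to 59093273, minus strand) was at 4.08, 4.85, 4.61 and 3.91 CPM in the Ctrl and at 0.0595, 0.0980, 0.165 and 0.0617 CPM in the Upf3b-KO libraries of frontal cortex. In cerebellum the Ctrl libraries had 3.15, 4.205, 4.59 and 3.25 CPM and the 3 deep Upf3b-KO libraries 0, 0.0284 and 0.0588 CPM. Between them these 3 libraries held 3 counts of the gene, and the Ctrl libraries 481. Pooled, Upf3b-KO was at 2.16% of Ctrl in frontal cortex (exact 95% interval 1.11% to 3.81%, counting error only) and at 0.806% in cerebellum (0.166% to 2.37%). With so few counts 1 library moved the cerebellar value: the log2 ratio of mean CPM was −7.03 with the 3 libraries, −8.07 without Upf3b-KO library 4 and −6.45 without Upf3b-KO library 2. The upstream sequence of this lncRNA is shown because another gene starts on its far side: only 29 bases separate it from Mrpl55, a gene for a mitochondrial ribosomal protein that is read in the other direction. The run below is that whole gap, 5′ to 3′ on the minus strand, at chr11:59093274-59093302 of GRCm39, with the letters GGGCGG (a GC box) in capitals.
2610507I01Rik: aGGGCGGccgtccccattaaGGGCGGagt

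Mrpl55 was tested, because its values had no part in choosing the set, but it was named after its values were seen. It was lower in Upf3b-KO as well, though by less than 2-fold. Its level was 24.6 ± 0.48 CPM (SD, n = 4) in Ctrl and 13.2 ± 0.88 (SD, n = 4) in Upf3b-KO frontal cortex, a log2 fold change of −0.98 (SE 0.058, adjusted p 5.04e-12 in edgeR's quasi-likelihood F test, corrected over all genes tested by the Benjamini-Hochberg method). In cerebellum it was at 21.8 ± 2.1 (SD, n = 4) against 13.9 ± 0.96 CPM (SD, n = 3), a log2 fold change of −0.69 (SE 0.076, adjusted p 1.70e-07 by the same edgeR test). The genotypes did not overlap in either region.

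Gm29676 (chromosome 13, 44254445 to 44471196, minus strand) was the other lncRNA with a large difference. Its level was 1.44, 1.21, 1.65 and 1.33 CPM in Ctrl and 0.208, 0.0653, 0.165 and 0.370 CPM in Upf3b-KO frontal cortex. In cerebellum the levels were 9.61, 9.11, 9.94 and 10.5 CPM in Ctrl, and 0.384, 0.738 and 0.264 CPM in Upf3b-KO. Upf3b-KO was thus at 14.3% of the Ctrl mean in frontal cortex and 4.72% in cerebellum. In cerebellum most of the difference lay in 1 transcript. ENSMUST00000223513 held 93.8% of the gene's counts in Ctrl cerebellum, at 9.19 ± 0.65 CPM (SD, n = 4), and averaged 0.00946 CPM in Upf3b-KO. In frontal cortex the same transcript was at 1.0 ± 0.17 CPM in Ctrl and had no counts in any Upf3b-KO library. There ENSMUST00000222396, which held 19.7% of the Ctrl counts, was at 0.274 CPM in Ctrl and 0.0993 CPM in Upf3b-KO, and ENSMUST00000220765 at 0.135 against 0.0868 CPM. ENSMUST00000220765, which starts at 44369910 against 44369963 for the other transcript, was at 0.601 ± 0.18 CPM in Ctrl and 0.441 ± 0.24 in Upf3b-KO cerebellum, with overlapping libraries. The 250 bases before the start of ENSMUST00000223513 are printed because both transcripts begin just downstream of them, at chr13:44369964-44370213 on the minus strand, with TTTGAA (the cell cycle element called CHR) in capitals.
Gm29676: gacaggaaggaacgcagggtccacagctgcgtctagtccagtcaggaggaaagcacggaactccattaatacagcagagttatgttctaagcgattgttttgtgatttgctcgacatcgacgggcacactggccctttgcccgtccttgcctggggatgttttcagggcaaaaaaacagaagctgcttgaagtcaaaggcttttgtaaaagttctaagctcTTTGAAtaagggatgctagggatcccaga

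9330160F10Rik (chromosome 11, 68948540 to 68951309, minus strand), a lncRNA of 1 exon, was at 2.43, 1.60, 1.37 and 2.22 CPM in Ctrl and 1.18, 0.985, 0.691 and 0.671 CPM in Upf3b-KO frontal cortex. The cerebellar values were 0.734, 1.26, 1.22 and 1.33 CPM in Ctrl and 0.228, 0.364 and 0.189 CPM in Upf3b-KO. Upf3b-KO was at 46.4% and 22.9% of the Ctrl mean in frontal cortex and cerebellum. Of the 31-base words of this transcript, 28.8% also occur in deposited transcripts of the opposite strand, chiefly Borcs6, a gene for a subunit of the complex that positions lysosomes. Whether the counting used strand was not stated, so part of these counts may belong to Borcs6.

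**Figure D1:**
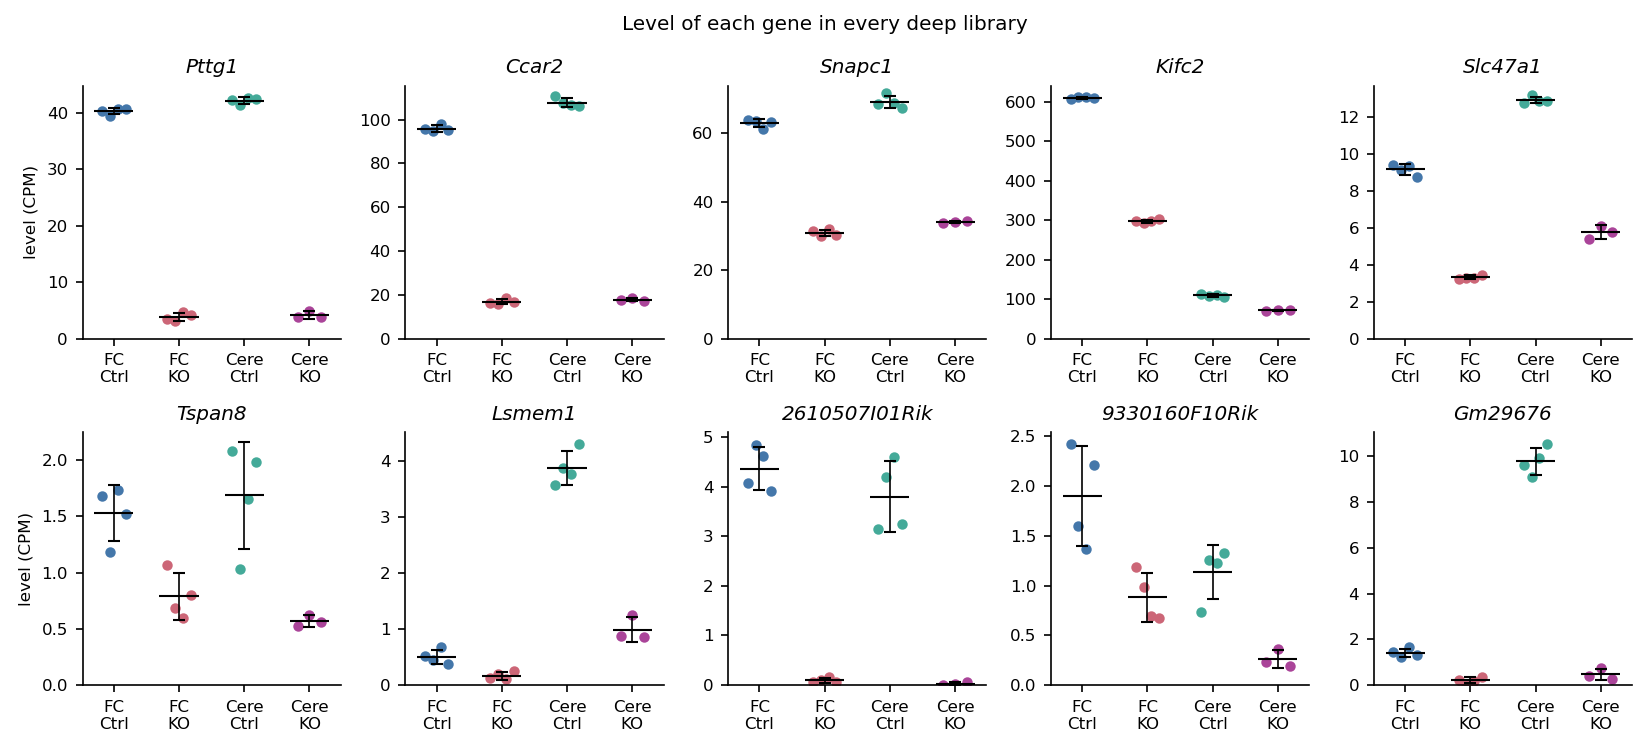
Level of each of the 10 genes in CPM (vertical axis, linear from 0) in the 15 deep libraries, by region and genotype. Points are libraries, the long line is the group mean and the bar its SD, and in every panel the Upf3b-KO points lie below the Ctrl points of the same region.

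Among the protein-coding genes, Pttg1 (chromosome 11, 43311071 to 43321000, minus strand) differed most. It was at 40.3, 39.4, 40.7 and 40.6 CPM in Ctrl and 3.51, 3.14, 4.78 and 4.10 CPM in Upf3b-KO frontal cortex. In cerebellum the values were 42.2, 41.3, 42.6 and 42.5 CPM in Ctrl and 3.80, 4.94 and 3.82 CPM in Upf3b-KO. Upf3b-KO thus held 9.64% and 9.94% of the Ctrl mean in frontal cortex and cerebellum. These are adult brain regions with few dividing cells, and the summed level of a list of 10 dividing-cell markers was 6.26 to 8.35 CPM in Ctrl and 19.0 to 21.1 CPM in Upf3b-KO frontal cortex, with 9 of the 10 called higher beside 9.16% of all genes tested. In cerebellum 0 of the 7 markers tested were called, with sums of 3.12 to 3.68 in Ctrl and 3.88 to 4.88 CPM in Upf3b-KO.

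The counts of Pttg1 were divided among 3 main transcripts that share a coding length of 597 nt and differ in the exon at their start. How they were divided varied between libraries far more than their sum. ENSMUST00000118368, for example, was at 16.8, 10.2, 24.7 and 0 CPM in the Ctrl libraries of cerebellum, where ENSMUST00000101340 had 8.96, 17.0, 0 and 23.7 CPM. ENSMUST00000020687 was at 15.3 ± 1.9 CPM (SD, n = 4) in Ctrl and 3.03 ± 1.3 (SD, n = 3) in Upf3b-KO cerebellum, and at 13.9 ± 4.9 against 1.19 ± 0.15 CPM (SD, n = 4 each) in frontal cortex. It held 36.03% of Pttg1 counts in Ctrl and 73.0% in Upf3b-KO cerebellum. The lower level of Pttg1 was therefore present in the gene sum and in its steadiest transcript, while the shares of the other main transcripts are uncertain. None of the 31-base words of the 3 transcripts occur in another gene of the matrices.

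Ccar2 (chromosome 14, 70375366 to 70391320, minus strand) was at 95.6, 94.8, 98.1 and 95.2 CPM in Ctrl and at 16.4, 15.6, 18.3 and 16.9 CPM in Upf3b-KO frontal cortex. Its Ctrl libraries in cerebellum had 110.7, 107.7, 106.6 and 106.4 CPM and its Upf3b-KO libraries 17.4, 18.5 and 17.1 CPM. Upf3b-KO held 17.5% of the Ctrl mean in frontal cortex and 16.4% in cerebellum. The full-length transcript ENSMUST00000035612, of 21 exons and 4036 nt, carried 98.97% or more of the counts in every group. Of its 31-base words, 6.49% occur on the opposite strand in Bin3, which overlaps the end of Ccar2 and encodes a protein that shapes membranes. Ccar2 is shown with its upstream 250 bases because it and Pttg1 were the only ones of the 10 with the letters CCAAT in that window, a sequence bound by the factor NF-Y. The run lies at chr14:70391321-70391570 on the minus strand, with CCAAT in capitals.
Ccar2: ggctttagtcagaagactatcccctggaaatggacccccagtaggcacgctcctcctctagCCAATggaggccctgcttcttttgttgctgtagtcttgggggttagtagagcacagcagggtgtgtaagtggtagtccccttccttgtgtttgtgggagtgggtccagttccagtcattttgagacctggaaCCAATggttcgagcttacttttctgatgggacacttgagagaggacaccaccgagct

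Snapc1 (chromosome 12, 74011193 to 74035835, plus strand) showed a smaller difference, of the same size in both regions. Its level was 63.9, 63.6, 61.3 and 63.2 CPM in Ctrl and 31.5, 30.1, 32.0 and 30.3 CPM in Upf3b-KO frontal cortex. Its values in cerebellum were 68.7, 71.8, 69.0 and 67.3 CPM in Ctrl and 33.7, 34.0 and 34.3 CPM in Upf3b-KO. Upf3b-KO was at 49.2% of the Ctrl mean in frontal cortex and 49.1% in cerebellum. The transcript ENSMUST00000021532 held 94.4% to 96.0% of the counts in the 4 groups.

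Kifc2 (chromosome 15, 76543981 to 76552402, plus strand) was the most abundant of the set in frontal cortex, at 606.1, 611.8, 612.8 and 609.0 CPM in Ctrl and 298.6, 293.0, 296.8 and 302.3 CPM in Upf3b-KO. Its cerebellar level was 113.5, 108.5, 110.0 and 105.6 CPM in Ctrl and 70.5, 72.6 and 71.2 CPM in Upf3b-KO. Upf3b-KO was at 48.8% of Ctrl in frontal cortex and 65.3% in cerebellum. The main coding transcript ENSMUST00000004294 was at 580.6 ± 3.2 CPM in Ctrl and 285.4 ± 6.1 in Upf3b-KO frontal cortex (SD, n = 4 each), and at 81.8 ± 6.5 (SD, n = 4) against 56.7 ± 1.7 CPM (SD, n = 3) in cerebellum. A transcript with a retained intron, ENSMUST00000230124, held 18.2% of Kifc2 counts in Ctrl cerebellum and 2.55% in Ctrl frontal cortex. It too had lower means in Upf3b-KO, at 12.0 against 19.9 CPM in cerebellum and 6.55 against 15.6 CPM in frontal cortex.

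Genes on the opposite strand lie close to Kifc2. Gm57852 starts 78 bp from the start of the main Kifc2 transcript, and Tmem276, a gene for a membrane protein, overlaps the Kifc2 gene. Tmem276 was also lower in Upf3b-KO, by close to 2-fold in both regions. It was at 25.7 ± 0.71 against 13.7 ± 0.42 CPM (SD, n = 4 each) in frontal cortex, a log2 fold change of −0.99 (SE 0.053, edgeR adjusted p 1.08e-12). In cerebellum it was at 33.5 ± 0.85 (SD, n = 4) against 17.1 ± 0.50 CPM (SD, n = 3), a log2 fold change of −1.02 (SE 0.050, adjusted p 1.43e-12 by the same edgeR test). Gm57852, by comparison, had a log2 fold change of −0.46 (SE 0.073) in frontal cortex and 0.57 (SE 0.086) in cerebellum, both under 2-fold, with adjusted p-values of 1.60e-05 and 9.94e-06 by the edgeR test. Of the 31-base words of the main Kifc2 transcript, 9.72% occur in transcripts of the opposite strand, chiefly of Foxh1.

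Slc47a1 (chromosome 11, 61234226 to 61269171, minus strand) was at 9.40, 9.12, 9.36 and 8.75 CPM in Ctrl and 3.25, 3.30, 3.30 and 3.45 CPM in Upf3b-KO frontal cortex. Cerebellar libraries had 12.8, 13.2, 12.9 and 12.8 CPM in Ctrl and 5.37, 6.10 and 5.79 CPM in Upf3b-KO. The Upf3b-KO mean was 36.3% and 44.6% of Ctrl. In brain this exporter is known from the meninges, so a list of 15 markers of leptomeningeal and perivascular fibroblasts was read beside it. Their summed level was 246.4 to 253.2 CPM in Ctrl and 181.0 to 194.5 CPM in Upf3b-KO frontal cortex, with 1 marker called higher (Igf2) and 1 lower (Dcn, 72.7 against 25.6 CPM), beside 9.16% and 1.06% of all genes tested. In cerebellum the sum was 201.6 to 204.3 against 140.8 to 147.4 CPM, with 0 called higher and 3 called lower (Ogn, Fmod and Islr), beside 10.3% and 2.86% of all genes. None of the markers was at 0. Slc22a6 is on this list and on that of transporters below. The part of these cells in the Slc47a1 values was not tested. In bulk tissue, fewer cells of a type and less RNA per cell cannot be told apart.

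Lsmem1 (chromosome 12, 40225492 to 40250076, minus strand) was at 0.510, 0.446, 0.679 and 0.372 CPM in Ctrl and 0.119, 0.196, 0.0989 and 0.258 CPM in Upf3b-KO frontal cortex, which is 67 against 21 counts in all. In cerebellum it was at 3.57, 3.88, 3.76 and 4.30 CPM in Ctrl and 0.872, 1.25 and 0.853 CPM in Upf3b-KO. Upf3b-KO stood at 33.5% of Ctrl in frontal cortex and 25.6% in cerebellum. About 30% of its sequence (29.8% of the 31-base words of the main transcript) lies opposite the lncRNA Gm17056, which was itself at 0.381 CPM in Ctrl and 0.358 CPM in Upf3b-KO cerebellum. In frontal cortex Gm17056 was at 0.277 CPM in Ctrl and 0.280 CPM in Upf3b-KO, where Lsmem1 itself averaged 0.168 CPM. The cerebellar libraries differed in a list of 8 granule and Purkinje cell markers, whose sum was 9322 to 9466 CPM in Ctrl and 3981 to 3992 CPM in Upf3b-KO, with 0 called higher and 5 called lower beside 10.3% and 2.86% of all genes tested. In frontal cortex, where Lsmem1 and Gm29676 were lower in Upf3b-KO as well, the sum was 259 to 268 CPM in Ctrl and 271 to 283 CPM in Upf3b-KO. Most of that sum was Calb1, at 224 CPM in Ctrl and 232 CPM in Upf3b-KO, so it mainly followed 1 gene. Of 6 markers tested there, 0 were called higher and 1 lower (Cbln1, 8.49 against 4.01 CPM), beside 9.16% and 1.06% of all genes. The part of these cells in the cerebellar values of Lsmem1 and Gm29676 was not tested.

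Tspan8 (chromosome 10, 115652737 to 115685798, plus strand) was at 1.68, 1.18, 1.74 and 1.52 CPM in Ctrl and 1.07, 0.686, 0.593 and 0.802 CPM in Upf3b-KO frontal cortex. Cerebellar values were 2.08, 1.03, 1.65 and 1.99 CPM in Ctrl and 0.523, 0.624 and 0.558 CPM in Upf3b-KO. Upf3b-KO was at 51.5% and 33.7% of the Ctrl mean, and the lowest Ctrl value of frontal cortex stood only slightly above the highest Upf3b-KO value. Its counts moved between the transcripts ENSMUST00000035563 and ENSMUST00000080630 from library to library, so a single transcript gives no steady value: in frontal cortex the former averaged 0.552 CPM in Ctrl and 0.468 CPM in Upf3b-KO.

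**Figure D2:**
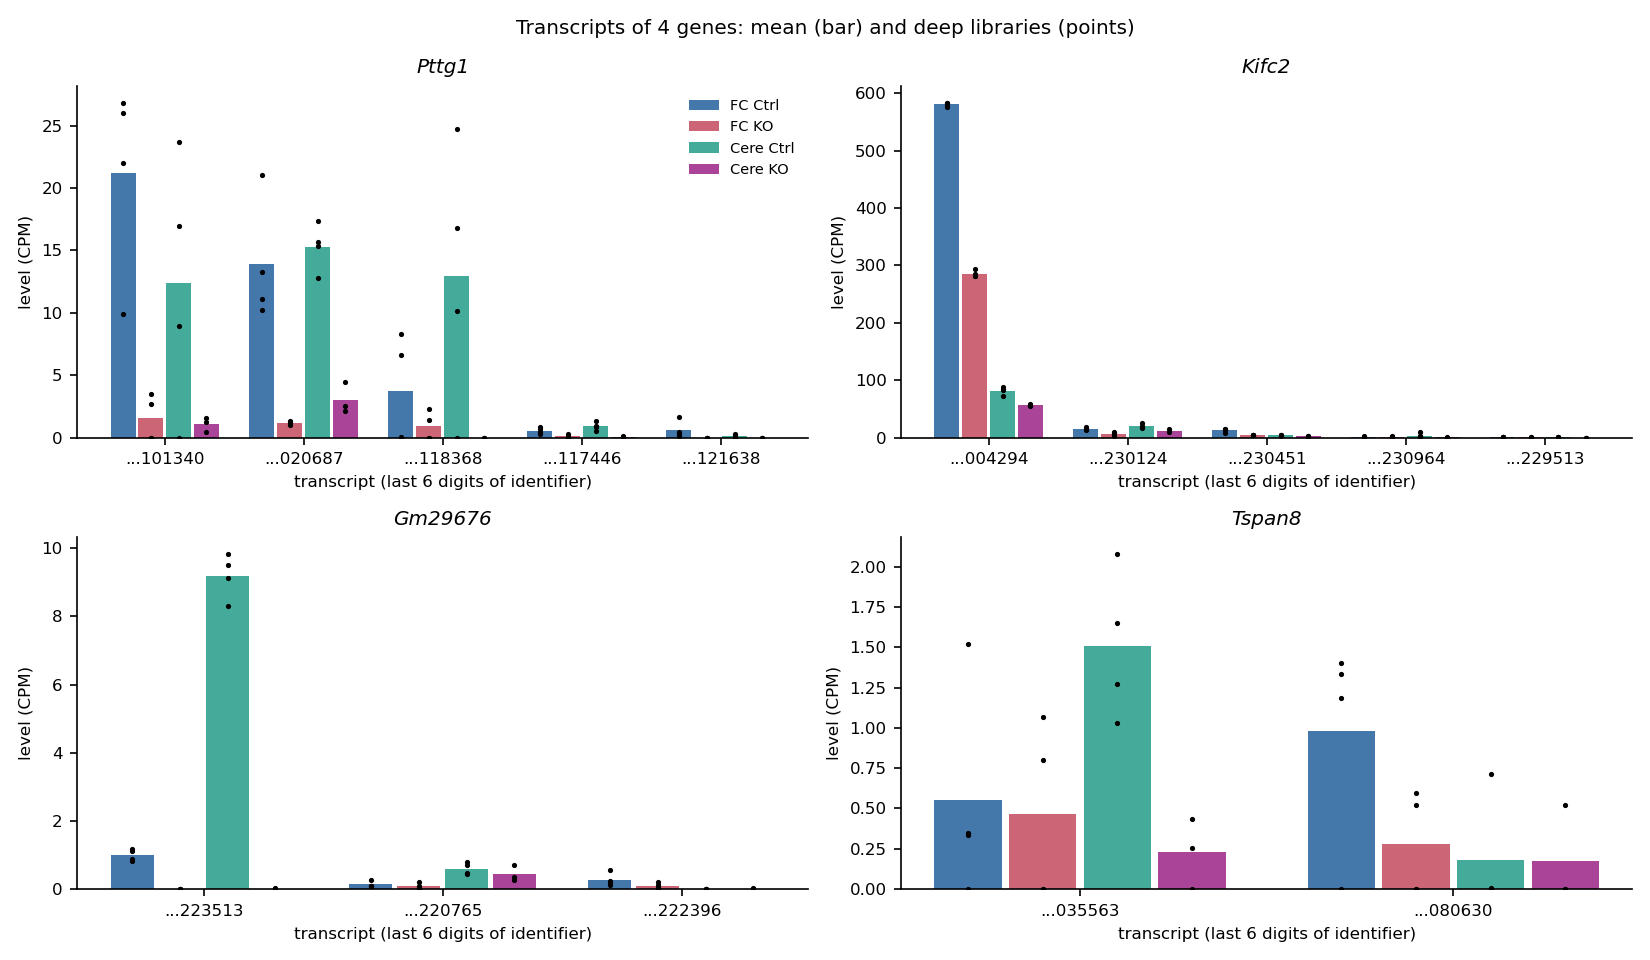
Level in CPM (vertical axis, linear from 0) of the most abundant transcripts of Pttg1, Kifc2, Gm29676 and Tspan8, named by the last digits of their identifiers, by region and genotype. Bars are means and points are deep libraries. The main Gm29676 transcript, at 9.19 CPM in Ctrl cerebellum, is close to 0 in Upf3b-KO, while points of the Pttg1 and Tspan8 transcripts scatter between 0 and their highest values within a group.

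Across the set, all 10 genes were called lower in frontal cortex, where 1.06% of the 18218 genes tested were called lower and 9.16% higher. In cerebellum 9 of 10 were called lower, where 2.86% of the 17785 genes tested were lower and 10.3% higher. The genes were picked for this, so nothing is read from the counts. Their median log2 fold change was −1.60 in frontal cortex and −2.07 in cerebellum, while the medians over all genes tested were 0.00 and 0.01. The share of Ctrl left in Upf3b-KO was lower in cerebellum than in frontal cortex for 2610507I01Rik, Gm29676, 9330160F10Rik, Tspan8, Lsmem1 and Ccar2, higher for Slc47a1, Kifc2 and, by little, Pttg1, and alike for Snapc1. These differences between regions were not tested. The calls of Tspan8 and Lsmem1 in frontal cortex rested on single libraries. Leaving out Ctrl library 1 or 3 or Upf3b-KO library 3 ended both, as did leaving out Upf3b-KO library 1 for Lsmem1 and Upf3b-KO library 2 for Tspan8, where the log2 fold changes were −1.65 to −1.48 for Lsmem1 and −0.98 to −0.91 for Tspan8. The shallow Upf3b-KO cerebellar library held 8 counts of the set in all (4 of Kifc2, 2 of Ccar2 and 2 of Snapc1), and 7 genes were at 0 in it, where 3 counts correspond to 46.2 CPM.

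A stop codon that precedes the final exon junction by 50 nt or more (a downstream exon junction, or dEJ), the feature that marks candidate targets of NMD, was found in 5 of the 39 transcripts, from Pttg1, Snapc1, Slc47a1 and Kifc2. These were scarce. The most abundant was Kifc2 ENSMUST00000230964, at 2.14, 0.508, 9.02 and 2.23 CPM in Ctrl cerebellum and 0, 1.16 and 0 CPM in Upf3b-KO, whereas in frontal cortex it averaged 0.864 CPM in Ctrl and 0.956 CPM in Upf3b-KO. Slc47a1 ENSMUST00000131723 had no counts in Ctrl cerebellum and averaged 0.218 CPM in Upf3b-KO, with 0.160 against 0.133 CPM in frontal cortex. No dEJ transcript of the set passed 1 CPM in a group besides that of Kifc2.

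Regional level in Ctrl mice had no part in the choice and was tested across 17521 genes, of which 15.9% were called lower in cerebellum than in frontal cortex and 9.18% higher. Of the 10 genes, 1 was called lower and 2 higher. Kifc2 was 5.79-fold higher in frontal cortex, with a log2 fold change of −2.53 (SE 0.020), cerebellum over frontal cortex, and an edgeR adjusted p of 3.70e-27. Lsmem1 was 7.36-fold higher in cerebellum, with a log2 fold change of 2.88 (SE 0.20) and an edgeR adjusted p of 3.29e-11. Gm29676 was 6.65-fold higher in cerebellum (log2 2.73, SE 0.12, edgeR adjusted p 2.08e-14). The study took both regions from 4 Ctrl mice, so these 8 libraries come from 4 animals. The labels do not tie libraries to animals, so the test treats them as independent. With the replicate number as a block the same count of 3 was called, but whether that number marks an animal is not known.

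Smaller regional differences passed the adjusted p but not the fold. Slc47a1 was higher in cerebellum by 0.44 (SE 0.072) on the log2 scale, with an edgeR adjusted p of 1.47e-05, and Ccar2 by 0.11 (SE 0.025), with an edgeR adjusted p of 3.95e-04. 9330160F10Rik was lower in cerebellum, with a log2 fold change of −0.80 (SE 0.24) and an edgeR adjusted p of 5.67e-03. The other 4 did not pass. Snapc1 had a log2 fold change of 0.08 (SE 0.031, edgeR adjusted p 0.0238), 2610507I01Rik −0.25 (SE 0.14, 0.103), Tspan8 0.08 (SE 0.23, 0.763) and Pttg1 0.01 (SE 0.035, 0.828).

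**Figure D3:**
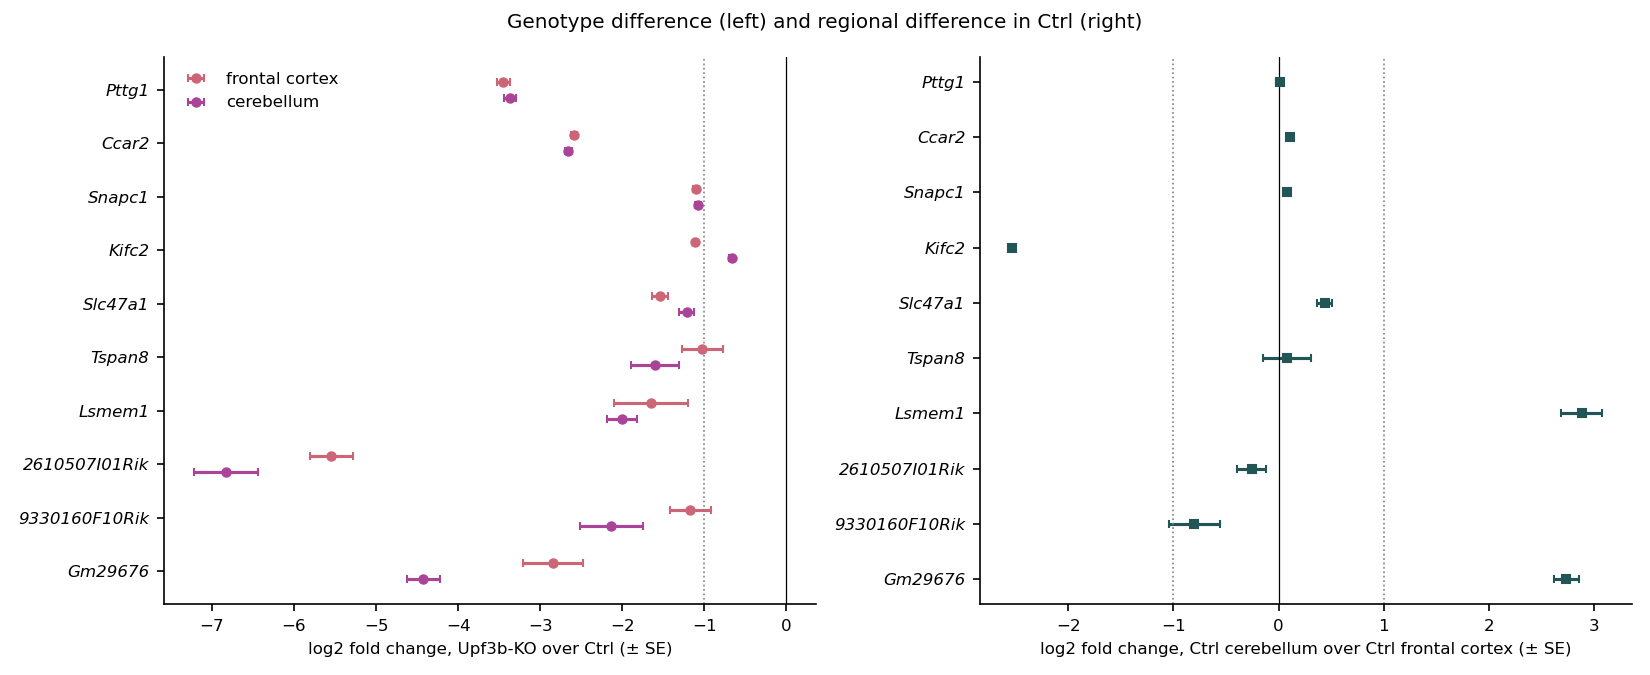
Log2 fold change of Upf3b-KO over Ctrl in frontal cortex and cerebellum (left) and of Ctrl cerebellum over Ctrl frontal cortex (right) for the 10 genes, with bars of 1 SE and dotted lines at a 2-fold difference. The genotype differences all lie below 0, from −6.83 to −0.67, while the regional values lie on both sides, from −2.53 for Kifc2 to 2.88 for Lsmem1.

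Scaled by annotated transcript length, so that genes can be compared with each other, the levels in Ctrl frontal cortex ran from Kifc2 (416 TPM) over Pttg1 (130 TPM), Ccar2 (57.6 TPM), Snapc1 (27.3 TPM) and Slc47a1 (8.35 TPM) down to Lsmem1 (0.427 TPM). In Ctrl cerebellum Pttg1 stood first (142 TPM), before Kifc2 (80.5 TPM), Ccar2 (67.8 TPM) and Snapc1 (33.2 TPM). Some neighbours in that order lay closer together than the spread between libraries, namely Slc47a1 and Gm29676 (12.4 and 12.3 TPM) and Tspan8 and 2610507I01Rik (2.79 and 2.77 TPM) in cerebellum.

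The positions of the genes were examined to see whether their neighbours on the chromosome moved with them. The set lay on chromosomes 10, 11, 12, 13, 14 and 15, with 4 genes on chromosome 11 (Pttg1, 2610507I01Rik, Slc47a1 and 9330160F10Rik) and none on the X chromosome, where Upf3b lies. On chromosome 11, 7 of the 1273 genes tested in both regions were lower in both, and 3 of them were not in the set, beside 0.364% of all genes. Chromosome 4, which holds none of the 10, had 9 of 1004. Within 1 Mb of the 10 genes, 331 other genes were tested in frontal cortex, where 10 were called lower (3.02%) and 26 higher (7.85%), beside 1.06% and 9.16% of all genes. In cerebellum 316 were tested, with 14 lower (4.43%) and 27 higher (8.54%), beside 2.86% and 10.3%. The median log2 fold change of these neighbours was −0.01 in both regions. With a window of 5 Mb, 19 of 844 and 32 of 814 genes were lower. The share of neighbours called lower was thus above that of all genes in each region, at 3.02% against 1.06% and 4.43% against 2.86%. Most neighbours were not called, and the share was not tested.

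Of 306 neighbours tested in both regions, 4 were lower in both, 9 were higher in both, and 0 were called in opposite directions. Of all 16754 genes tested in both, 0.364%, 3.15% and 0.203% were so called. Gm5083, a lncRNA on the other strand inside the span of Gm29676, was at 0.904 ± 0.18 CPM in Ctrl and 0.0866 ± 0.073 in Upf3b-KO frontal cortex (SD, n = 4 each, log2 −3.40, SE 0.48, edgeR adjusted p 3.09e-06). In cerebellum it was at 33.9 ± 0.42 (SD, n = 4) against 7.68 ± 0.38 CPM (SD, n = 3), with a log2 fold change of −2.19 (SE 0.059) and an edgeR adjusted p of 1.55e-16. Gm29676 and Gm5083 were thus both lower in Upf3b-KO and both higher in Ctrl cerebellum than in Ctrl frontal cortex.

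A second pair lay on chromosome 14, on 1 side of Ccar2. Gm16867, 634397 bp away, was at 13.3 to 15.5 CPM in Ctrl and 0 to 0.102 CPM in Upf3b-KO frontal cortex, and at 10.3 to 13.0 CPM in Ctrl cerebellum with no counts in the 3 Upf3b-KO libraries. Gm27177, a lncRNA 454631 bp away, was at 7.89 to 11.6 against 0.0666 to 0.441 CPM in frontal cortex and 9.92 to 12.0 against 0.114 to 0.790 CPM in cerebellum. Bin3, which lies between them and Ccar2 and overlaps the latter, had log2 fold changes of 0.11 (SE 0.092) and 0.05 (SE 0.11) and was not called. Rpl26, a ribosomal protein gene 150718 bp from 9330160F10Rik, was at 75.9 ± 4.5 against 5.14 ± 0.22 CPM in frontal cortex (SD, n = 4 each) and 56.0 ± 3.1 (SD, n = 4) against 4.22 ± 0.50 CPM (SD, n = 3) in cerebellum. Ribosomal protein genes have near-identical processed copies, so how its reads were assigned is uncertain.

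**Figure D4:**
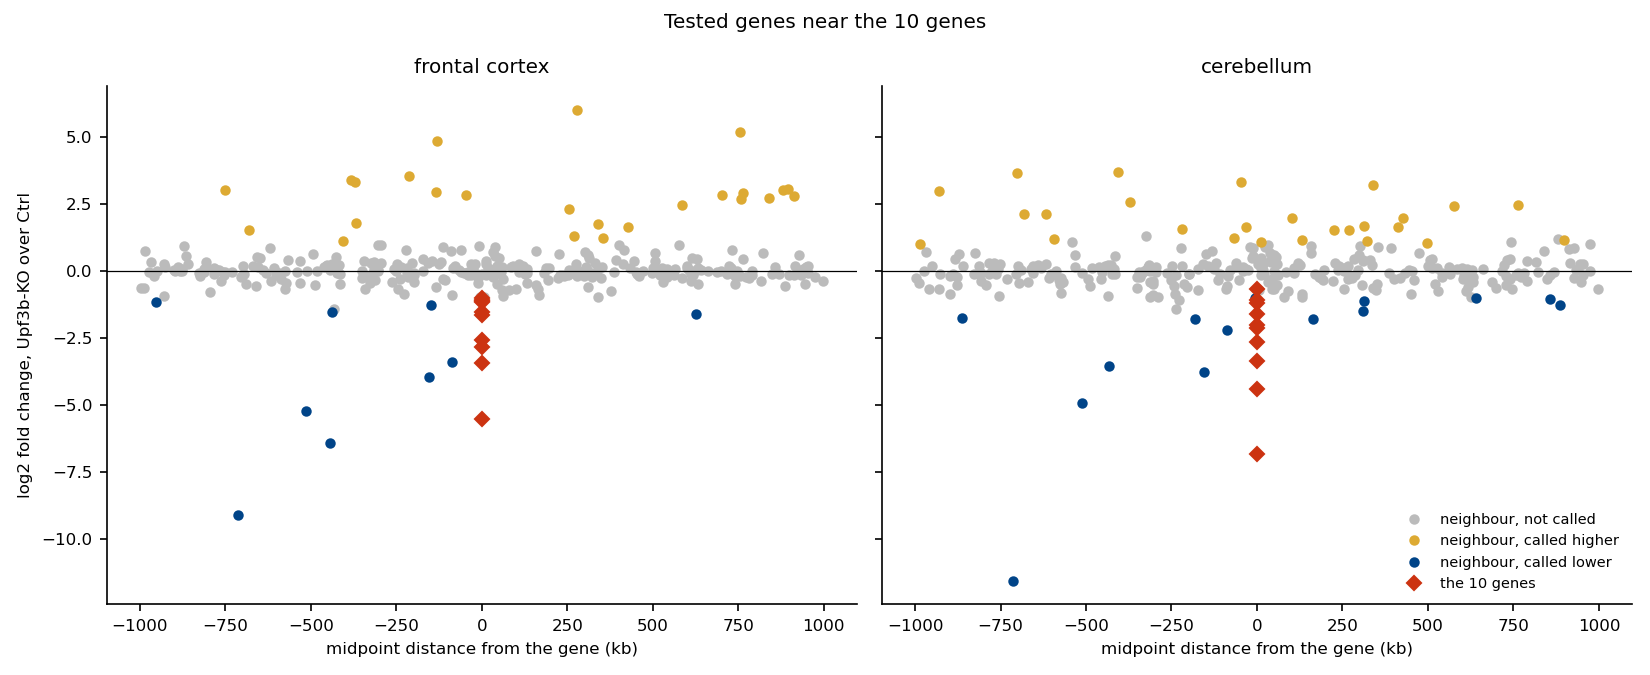
Log2 fold change of Upf3b-KO over Ctrl (vertical axis) of every tested gene near the 10 genes, against the distance of its midpoint in kb (horizontal axis), in frontal cortex and cerebellum. Diamonds are the 10 genes, set at 0, and circles are neighbours. Most neighbours lie near 0, and those called lower (10 in frontal cortex, 14 in cerebellum) are scattered over the window.

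Genes that overlap or adjoin the set did not all share its direction. Slu7, a splicing factor gene that overlaps Pttg1 on the other strand, was at 66.3 ± 2.4 CPM in Ctrl and 84.2 ± 1.9 in Upf3b-KO frontal cortex (SD, n = 4 each), a log2 fold change of 0.27 (SE 0.030) with an edgeR adjusted p of 1.22e-07. In cerebellum its log2 fold change was 0.11 (SE 0.028, edgeR adjusted p 1.48e-03). Borcs6 had log2 fold changes of −0.11 (SE 0.071) and 0.28 (SE 0.083), and Ifrd1, which lies 1485 bp beyond Lsmem1, 0.57 (SE 0.036) and 0.38 (SE 0.045). None of these passed 2-fold. Of the 7 tested neighbours that overlap one of the 10 genes, 2 were called lower in a region, Gm5083 in both and Tmem276 in cerebellum. Of all genes tested, 1.06% were called lower in frontal cortex and 2.86% in cerebellum.

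**Figure D5:**
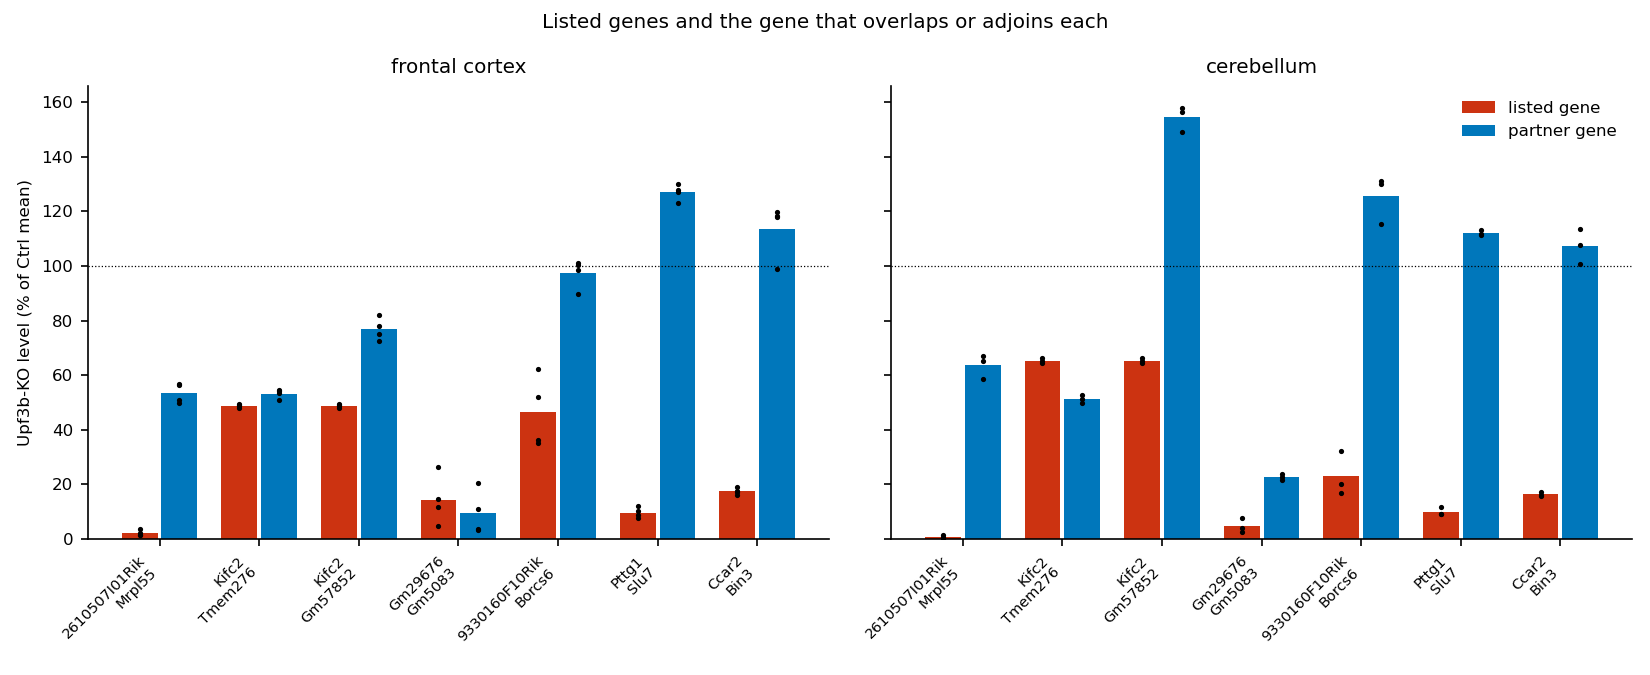
Upf3b-KO level as a percent of the Ctrl mean (vertical axis, from 0, dotted line at 100) for a gene of the set (red bars) and the gene that overlaps or adjoins it (blue bars), in frontal cortex and cerebellum. Bars are means and points are deep Upf3b-KO libraries. Mrpl55, Tmem276 and Gm5083 lie below 100 in both regions, and Slu7 and Bin3 have means above it.

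The upstream windows had little in common. Over 250 bases before the start, on both strands, CCAAT was present in 34.4% of the 16754 genes tested in both regions and in 2 of the 10, Pttg1 and Ccar2. GGGCGG was present in 44.5% of genes and in 4 of the 10, Pttg1, 2610507I01Rik, Slc47a1 and 9330160F10Rik. TTTGAA was present in 12.9% of genes and in 2 of the 10, Snapc1 and Gm29676. The TATA box (TATAAA) was present in 8.13% of genes, the E-box in 7.04% (letters CACGTG) and the cyclic AMP response element in 1.71%, and each occurred in 0 of the 10. The letters searched for the last of these were TGACGTCA. These are matches of letters and not sites of binding.

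Genes that work with the protein-coding genes of the set were read from lists, with the 10 genes left out. Their counts stand beside 9.16% of all genes tested called higher and 1.06% lower in frontal cortex, and 10.3% and 2.86% in cerebellum. Levels are mean ± SD, Ctrl against Upf3b-KO, with n = 4, or 3 in Upf3b-KO cerebellum. Of 17 genes for separase, cohesin and their regulators tested in frontal cortex, 3 were called higher and 0 lower, with a median log2 fold change of 0.01. They were Espl1, which encodes separase, the enzyme that securin inhibits (0.930 ± 0.14 against 2.47 ± 0.45 CPM, log2 1.32, SE 0.21, edgeR adjusted p 1.21e-05), Cdc20, which activates the destruction of securin (1.02 ± 0.33 against 2.83 ± 0.29 CPM, edgeR adjusted p 7.89e-06), and Cdca5. In cerebellum 0 of 18 were higher and 1, Cdc20, was lower (3.48 ± 0.44 against 1.66 ± 0.11 CPM, edgeR adjusted p 8.91e-06), with a median of −0.30. The rise of Espl1 and Cdc20 in frontal cortex stood beside the rise of 9 of 10 dividing-cell markers there, and its relation to Pttg1 was not tested.

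Of 13 partners of Ccar2 and members of the sirtuin group tested in each region, 0 were called in frontal cortex (median log2 0.09), and in cerebellum Sirt3, a mitochondrial deacetylase, was higher (47.9 ± 2.2 against 131.6 ± 6.1 CPM, log2 1.41, SE 0.038, edgeR adjusted p 1.32e-16), with 0 lower and a median of 0.05. Sirt1 itself was at 5.57 ± 0.53 against 4.69 ± 0.76 CPM in frontal cortex and 7.14 ± 1.1 against 6.08 ± 0.49 CPM in cerebellum, with edgeR adjusted p-values of 0.0322 and 0.0533, and was not called. Of 14 genes for other subunits of the small nuclear RNA activating complex and RNA polymerase III initiation, 0 were called in either region at these thresholds, with medians of 0.04 and −0.13. Snapc4, the largest subunit, was at 17.2 ± 0.54 against 23.4 ± 1.3 CPM in frontal cortex, and Snapc3 at 28.3 ± 2.2 against 21.2 ± 0.68 CPM in cerebellum, both under 2-fold.

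Among 9 other transporters of organic ions and drugs, 1 was higher in frontal cortex and 2 in cerebellum, and 0 were lower (medians −0.16 and 0.03). Slc29a4, a monoamine transporter, was at 13.0 ± 0.12 against 30.0 ± 1.4 CPM in frontal cortex (log2 1.13, SE 0.053, edgeR adjusted p 1.04e-13) and 18.4 ± 1.7 against 40.2 ± 0.54 CPM in cerebellum (log2 1.08, SE 0.059, edgeR adjusted p 7.54e-12). Slc22a3, another cation transporter, was at 0.0436 ± 0.034 against 1.33 ± 0.13 CPM in cerebellum (edgeR adjusted p 9.54e-08). Of 20 other tetraspanins, 0 were called in frontal cortex (median 0.00), and in cerebellum Cd82 was higher (20.6 ± 1.7 against 46.8 ± 0.50 CPM, edgeR adjusted p 8.30e-13) and Tspan18 lower (21.3 ± 1.5 against 9.49 ± 1.1 CPM, edgeR adjusted p 2.02e-10), with a median of −0.02.

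Of 27 other kinesins tested in frontal cortex, 4 were higher and 0 lower, with a median of −0.04. Kif2c rose from 0.810 ± 0.13 to 6.18 ± 0.76 CPM (log2 2.85, SE 0.16, edgeR adjusted p 1.94e-12) and Kif20a from 0.630 ± 0.15 to 2.56 ± 0.18 CPM (edgeR adjusted p 1.08e-07), and the others were Kif11 and Kif23. These motors act in cell division, as do Kif4, Kif22, Kifc1 and Kif18a, which were tested in frontal cortex and not called, at log2 fold changes of −0.09, 0.01, 0.37 and 0.46. In cerebellum, of 26 tested, Kifc3, a minus-end motor like Kifc2, was higher at 27.1 ± 1.2 against 57.3 ± 1.9 CPM (log2 1.03, SE 0.043, edgeR adjusted p 1.21e-13), 0 were lower, and the median was 0.16. In frontal cortex Kifc3 was at 38.3 ± 1.9 against 39.2 ± 0.87 CPM.

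The libraries of the genotypes also differed in markers of other cells, counted here beside the same shares of all genes (9.16% higher and 1.06% lower in frontal cortex, 10.3% and 2.86% in cerebellum). Choroid plexus markers were called higher in 8 of 8 in frontal cortex (sums of 20.9 to 22.1 CPM in Ctrl and 2188 to 2247 in Upf3b-KO) and 7 of 8 in cerebellum (31.4 to 35.8 against 1401 to 1426), and ependymal markers in 7 of 8 and 5 of 8. Striatal neuron markers were higher in 9 of 9 in frontal cortex and 3 of 9 in cerebellum, and oligodendrocyte markers in 0 of 6 and 5 of 6. Granule and Purkinje cell markers were lower in 1 of 6 in frontal cortex and 5 of 8 in cerebellum, and fibroblast markers in 1 of 15 and 3 of 15. Lower calls were also made for 1 of 8 cortical excitatory neuron markers in frontal cortex and 1 of 6 astrocyte markers in cerebellum, and 0 of 6 microglial and 0 of 6 endothelial markers were called in either region. Each tissue held its defining markers in Ctrl, with granule and Purkinje cell sums of 9322 to 9466 CPM in cerebellum, where Upf3b-KO had 3981 to 3992, and of 259 to 268 in frontal cortex. How far these differences enter the values of the 10 genes was not tested.

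The genes whose level followed each of the 10 most closely over the 15 deep libraries were sought among 15227 genes averaging 1 CPM or more. The points share region and genotype, so the values of r are a description. For Pttg1 they were Ubb (Pearson r 0.996) and Gm16867 (0.994), for Ccar2 Ubb (0.999) and Upf3b (0.997), for Snapc1 Upf3b (0.996) and Ubb (0.995), and for 2610507I01Rik Gm16867 (0.994) and Gm17081 (0.994). Ubb, a polyubiquitin gene, averaged 2325 CPM in Ctrl and 1146 in Upf3b-KO frontal cortex, and 2440 against 1194 CPM in cerebellum. Gm17081 averaged 3.68 against 0.0535 CPM in frontal cortex and 3.05 against 0.0129 CPM in cerebellum. Ubb and Gm17081 differed mainly between genotypes and little between regions.

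For Lsmem1 the closest genes were Mtus2 (0.992) and Dact1 (0.991), the latter at 7.34 against 4.80 CPM in frontal cortex and 39.0 against 12.9 CPM in cerebellum. Gm29676 was followed by Anp32e (0.994) and Gpm6b (0.992), Slc47a1 by Ndrg2 (0.994) and Cldnd1 (0.989), and Kifc2 by Prnp (0.995) and Tspan7 (0.995), which was at 2075 CPM in Ctrl frontal cortex and 1049 CPM in Ctrl cerebellum. The closest genes were less alike for Tspan8 (Asrgl1, 0.927, and Snrpd3, 0.908) and 9330160F10Rik (Arl8b, 0.943, and Rasa2, 0.941), both of which had wide spread between libraries.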

How the data were processed

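RNA without ribosomal RNA was sequenced as read pairs after library preparation with a SMART-Seq kit. The deposited matrices give, for each Ensembl transcript, the expected count that the authors estimated with RSEM. The submitters' processing notes name STAR 2.5.2b and the genome GRCm39, and RSEM divides reads between similar transcripts, so single transcripts are less certain than gene sums. The notes also name featureCounts and DESeq2, and whether strand was used was not stated. No column of another comparison was used.

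Of 142435 transcripts, 141102 matched GENCODE vM39 by identifier. Counts were summed per gene and rounded, and fitted over all genes with edgeR 4.0.16 in R 4.3.3 (limma 3.58.1). The filter was filterByExpr (minimum count 10, total 15), scaling was TMM, and the quasi-likelihood F test was used with Benjamini-Hochberg adjustment. Calls needed an adjusted p below 0.01 together with a fold above 2. The SE is the absolute log2 fold change over the square root of F. CPM is the count over the library total, and 3 counts are 0.0851 to 0.108 CPM in the deep libraries. Intervals are exact at 95%. Fits were run on simulated data with 200 changed genes in each comparison, of which 199 or 200 were recovered, with at most 1 false call. The simulated spread and fold changes were set and not taken from these libraries, so this checked the code only. Other software was Python 3.11.15 with numpy 2.4.6, pandas 2.3.3, scipy 1.17.1 and matplotlib 3.10.9. Upstream sequence was read from GRCm39.

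The 10 genes and all gene lists were chosen with earlier results of these data known. Also named are the 2 genes with the highest Pearson r of log2(CPM + 1) to each, neighbours called lower in both regions, and up to 2 genes called in each direction per pathway list, by adjusted p. Other overlapping or adjoining genes, Snapc3, Snapc4, Sirt1, Cdca5, Kif11, Kif23, Kif4, Kif22, Kifc1, Kif18a and single markers were named after their values were seen. Same-numbered libraries of different groups did not deviate together (correlations of −0.106 to 0.120 over 10354 genes), so the numbers were not taken as pairs.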

Additional observations from a re-analysis of the deposited data

How the results depend on the processing

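Alternatives were DESeq2 1.42.0, median-of-ratios scaling, other filters, looser thresholds, the shallow library, all deep libraries in one fit, other windows and leaving out each library. The main counts were 1861 genes called in frontal cortex, 2339 in cerebellum and 4402 between the Ctrl regions, and 10 and 14 neighbours called lower in frontal cortex and cerebellum. Among genes averaging 1 CPM or more, 1138 and 1505 genes were called in frontal cortex and cerebellum, since fewer genes were tested. Without a fold limit and at an adjusted p below 0.05, 9711, 11453 and 13406 were called, 7 of the 10 genes in place of 3 differed between the Ctrl regions, and 96 and 111 neighbours were lower. A window of 0.5 Mb gave 6 and 9 neighbours lower, and 5 Mb gave 19 and 32.

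Leaving out each library gave 1837 to 1943, 2210 to 2294 and 4432 to 4509 genes, always 3 of the 10 genes between regions, 9 to 12 and 13 to 16 neighbours lower, and medians of the 10 log2 ratios of CPM between −1.67 and −1.42 (frontal cortex) and between −2.31 and −1.91 (cerebellum). Regional values near 0 changed sign: Pttg1 to −0.0151 among genes averaging 1 CPM or more, and Tspan8 to −0.0224 without Ctrl frontal cortex library 2 and −0.0357 without Ctrl cerebellum library 1, within a range up to 0.267 over the libraries left out, none of them called. Another scaling moved the median of all genes by under 0.01.

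With the replicate number as a block, 1837, 2180 and 4326 genes were called, and Lsmem1 lost its call in frontal cortex. Whether the numbers pair the libraries is not known. Depth limits Lsmem1, Tspan8, 9330160F10Rik and Gm29676, with 67 to 252 counts in the Ctrl libraries of frontal cortex together, and 2610507I01Rik, with 12 counts in the Upf3b-KO libraries of frontal cortex and 3 in those of cerebellum. No library lay apart from its group in the 30 groups of 4 that were examined. Upf3b-KO cerebellum, with 3 deep libraries, was not examined in this way.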
